A study of Mus musculus with 8 samples.

Results

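The genes described here encode the receptor for interferon gamma (IFN-γ), Janus kinases (JAKs) and signal transducers and activators of transcription (STATs). They are Ifngr1 and Ifngr2, Jak1, Jak2 and Tyk2, and Stat3, Stat4, Stat5a, Stat5b and Stat6. They were listed by name, without a rule on measured values, but with earlier results of these data known. All 10 had a probe set, out of 8251 genes with a single symbol on the array. Jak2, Stat3 and Stat5a had 2 probe sets each, so that the 10 genes were measured by 13 of the 12422 probe sets tested. Other members of these families are not analysed here.

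The cells were CD8+ dendritic cells, an antigen-presenting subset, purified from the spleens of female DBA/2J mice aged 60 days. All mice, those of the controls included, had been given 10 µg of Flt3 ligand (Flt3-L) for 9 days, which increases dendritic cell numbers. No genetic change is named for any group. The cells were kept in medium alone or with mouse IFN-γ at 200 U/ml for 4 or 16 hours, which gave 4 groups of 2 Affymetrix MG-U74Av2 arrays, 8 in all. The sources used here do not state the purity of the sort or whether mice were pooled, nor whether replicate arrays had separate animals or cultures as their source. The p-values therefore cover only the spread between arrays, possibly a technical one, and precision is limited by the small number of arrays.

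IFN-γ binds a receptor built from the chains encoded by Ifngr1, which binds the ligand, and Ifngr2, which is needed for signalling. The chains carry the kinases JAK1 and JAK2, which phosphorylate each other and the receptor. STAT proteins then dock, are phosphorylated, pair and move to the nucleus, where the dimer formed in response to IFN-γ binds the gamma-activated sequence. TYK2 serves other receptors, such as those for type I interferons and IL-12, and the STATs described here are known for other cytokines: STAT3 for IL-6 and IL-10, STAT4 for IL-12, STAT5A and STAT5B for IL-2 and GM-CSF, and STAT6 for IL-4. Much of this pathway is switched by phosphorylation, which an RNA array does not measure.

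Promoters are shown for Stat3, the member with the largest range between groups, and Irf1, a transcription factor gene that rose with IFN-γ (values below). Both are the 250 bases before a start site in RefSeq on build GRCm38.p6, 5′ to 3′ in the sense of the gene, with any match to the gamma-activated sequence TTCNNNGAA, which reads alike on both strands, in capitals. The Stat3 window is chr11:100939541-100939790, minus strand, and the Irf1 window chr11:53769764-53770013, plus strand.
Stat3: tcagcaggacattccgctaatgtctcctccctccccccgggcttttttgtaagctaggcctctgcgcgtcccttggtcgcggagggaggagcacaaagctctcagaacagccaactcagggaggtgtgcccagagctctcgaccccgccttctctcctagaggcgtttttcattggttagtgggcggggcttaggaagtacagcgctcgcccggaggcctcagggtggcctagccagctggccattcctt
Irf1: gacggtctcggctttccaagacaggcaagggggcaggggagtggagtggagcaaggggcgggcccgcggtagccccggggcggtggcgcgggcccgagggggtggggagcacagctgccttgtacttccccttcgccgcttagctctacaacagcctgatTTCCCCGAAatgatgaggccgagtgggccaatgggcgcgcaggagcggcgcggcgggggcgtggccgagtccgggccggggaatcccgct
The Stat3 window held no match, and that of Irf1 held TTCCCCGAA, which began 90 bases before the start. The 10 member genes had 13 such windows, of which 0 held the motif. Over all 32851 promoters of the table, 2306 held it, or 7.02%. Among 8 genes listed as markers of the response to IFN-γ, 3 of 10 windows held it, those of Irf1, Igtp and Irf8. The windows of Cxcl9, Gbp2, Irgm1, Socs1 and Tap1, also on that list, held none. That of Socs3, which did not pass with IFN-γ, held TTCTTAGAA. These matches are a description of the letters in these windows only.

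Intensities were set against the unspecific signal of 15 antisense controls, whose median lay between a log2 intensity of 5.49 and 5.93 on the 8 arrays. Of the 13 member probe sets, 12 were above that median on all 8 arrays. The exception was the second Jak2 probe set, 96488_at, which lay between 2.69 and 3.10, below the controls on every array, and whose change cannot be read. Median intensity over all probe sets tested was 51.3 to 53.7, and the correlation r between replicate arrays, over probe sets, was 0.989 to 0.997. The Actb 3′/5′ ratio, an index of RNA and labelling quality, was 2.04 and 2.20 in medium at 4 hours and 1.47 to 1.68 on the other 6 arrays. Of 12 measured markers of CD8+ dendritic cells, 8 were on average above the antisense controls, among them Cd8a, Itgax, Ly75 and Irf8, while Itgae, Cd36, Xcr1 and Zbtb46 were not. Markers of other cells were also above them: 5 of 5 for B cells, 5 of 5 for T cells, 6 of 7 for neutrophils and 9 of 13 for macrophages.

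The transcripts of the receptor, kinases and STATs differed little between IFN-γ and medium, in RNA in which genes known to respond to IFN-γ rose. None of the 13 member probe sets passed the test (limma, Benjamini-Hochberg adjustment over all probe sets, adjusted p under 0.05) at 4 or at 16 hours, where 0.258% of all probe sets did at each time. With the replicate number as a block, also 0 of 13 passed, against 1.26% of all probe sets at 4 hours and 0.845% at 16 hours. In both comparisons the 95% interval of every one of the 13 log2 differences lay between -1 and 1. A doubling and a halving were thus outside it, except that the dim Jak2 probe set, 96488_at, cannot show this. The median difference of the members was 0.03 at 4 hours and -0.01 at 16 hours, against -0.01 and -0.00 over all probe sets. Regardless of sign, the median was 0.090 and 0.078 for the members, against 0.071 and 0.070 over all probe sets. Of the 8 response markers, 6 rose at 4 hours and 7 at 16 hours, with median differences of 1.34 and 1.30, and 8 rose at both times with the block. These markers, too, were listed with earlier results of these data known. Irf1 went from 10.02 and 10.08 to 10.87 and 10.90 at 4 hours (difference 0.84, SE 0.10, adjusted p = 0.0123, limma) and rose by 0.96 at 16 hours (adjusted p = 0.0075). Cxcl9, which encodes a T cell-attracting chemokine, rose by 4.13 and 3.40 on the log2 scale at 4 and 16 hours. Its level in medium was below the antisense controls, so the size of these rises is uncertain.

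**Figure D1:**
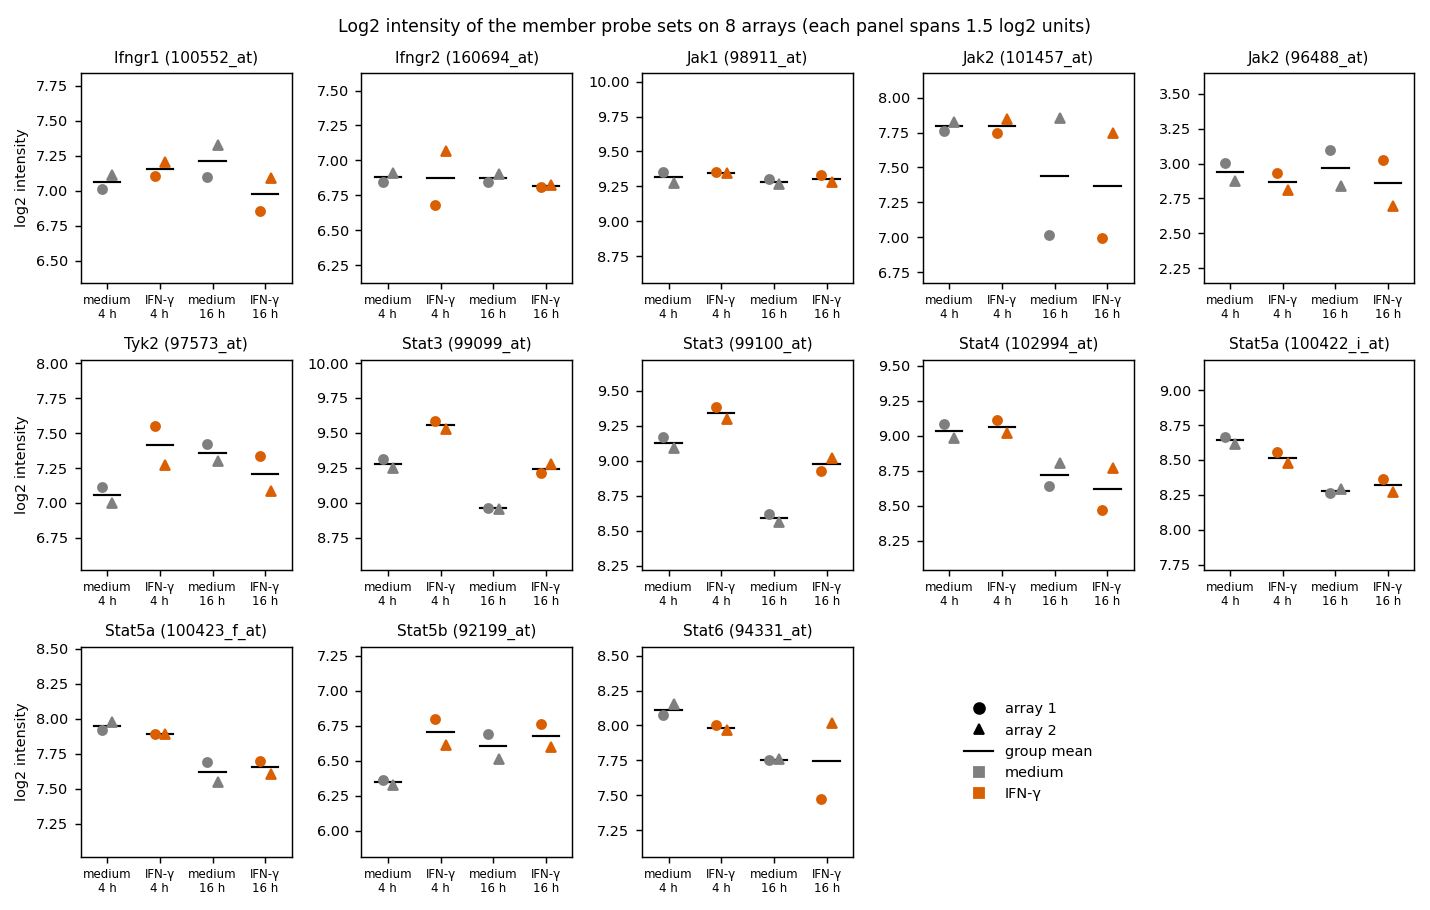
Log2 intensity (y axis, 1.5 units in each panel) of the 13 member probe sets on the 8 arrays (x axis, 4 groups of 2). Circles are array 1 and triangles array 2 of a group, grey is medium, orange is IFN-γ, and the black line is the group mean. The Stat3 panels show the IFN-γ arrays above the medium arrays of the same time and the 16-hour arrays lower than the 4-hour arrays of the same treatment.

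Ifngr1, the ligand-binding chain, had log2 intensities of 7.01 and 7.11 in medium at 4 hours, 7.10 and 7.21 with IFN-γ at 4 hours, 7.10 and 7.33 in medium at 16 hours, and 6.86 and 7.09 with IFN-γ at 16 hours. The arrays overlapped at 4 hours, and at 16 hours both IFN-γ arrays lay below both medium arrays, the upper one by a small margin. The difference was 0.09 at 4 hours (SE 0.13, 95% interval -0.20 to 0.38) and -0.24 at 16 hours (interval -0.53 to 0.05, adjusted p = 0.9998, limma). Ifngr2, the signalling chain, measured 6.85 and 6.91, 6.68 and 7.07, 6.85 and 6.90, and 6.81 and 6.82 in the same order of groups. Its widest spread was between the 2 arrays with IFN-γ at 4 hours, and its group means spanned 0.06 on the log2 scale. The IFN-γ difference of Ifngr2 was -0.01 at 4 hours (interval -0.31 to 0.30) and -0.06 at 16 hours (interval -0.36 to 0.25).

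Jak1, the kinase carried by the Ifngr1 chain, had the narrowest range over the 8 arrays of the 13 probe sets, at 9.35 and 9.28, 9.35 and 9.35, 9.30 and 9.26, and 9.33 and 9.28 in the same order. Its 4 group means lay within 0.07 of each other, and the IFN-γ difference was 0.03 at 4 hours (interval -0.20 to 0.26) and 0.02 at 16 hours (interval -0.21 to 0.25). Jak2, the kinase carried by the Ifngr2 chain, measured 7.76 and 7.83 in medium, against 7.74 and 7.85 with IFN-γ at 4 hours on its brighter probe set, 101457_at. At 16 hours it measured 7.02 and 7.86 in medium, against 6.99 and 7.75 with IFN-γ. In both 16-hour groups array 1 was low and array 2 stood at the 4-hour level, so the replicate arrays differed by 0.84 and 0.76. These gaps made Jak2 the member with the widest intervals: the IFN-γ difference was -0.00 at 4 hours (interval -0.64 to 0.64) and -0.07 at 16 hours (interval -0.70 to 0.57).

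Tyk2, the kinase of type I interferon and IL-12 receptors, measured 7.12 and 6.996 in medium, against 7.55 and 7.27 with IFN-γ at 4 hours. It measured 7.42 and 7.30 in medium, against 7.34 and 7.08 with IFN-γ at 16 hours. Both IFN-γ arrays lay above both medium arrays at 4 hours, and the groups overlapped at 16 hours. Medium at 4 hours was the lowest of the 4 group means. The difference was 0.36 at 4 hours (SE 0.14, interval 0.04 to 0.67, unadjusted p = 0.0302, adjusted p = 0.961, limma) and -0.15 at 16 hours (interval -0.46 to 0.16). The IFN-γ effect of Tyk2 at 16 hours minus that at 4 hours was -0.50 (SE 0.20, unadjusted p = 0.0295, adjusted p = 0.9998, limma), which did not pass. The Actb ratio also set medium at 4 hours apart from the other groups, and its part in this value was not tested.

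Stat3 was the member whose IFN-γ arrays stood above the medium arrays at both times and on both of its probe sets. On 99099_at it measured 9.31 and 9.25 in medium, against 9.59 and 9.53 with IFN-γ at 4 hours, and 8.96 and 8.96 in medium, against 9.21 and 9.28 with IFN-γ at 16 hours. On 99100_at, built on another source sequence, it measured 9.17 and 9.09 against 9.38 and 9.30 at 4 hours, and 8.62 and 8.56 against 8.93 and 9.02 at 16 hours. In each of these 4 pairs of groups the lower IFN-γ array was above the higher medium array. On 99099_at the difference was 0.28 at 4 hours (SE 0.10, interval 0.04 to 0.51, adjusted p = 0.882, or 0.306 with the replicate block, limma) and 0.29 at 16 hours (interval 0.05 to 0.52, adjusted p = 0.9998, or 0.352 with the block). On 99100_at it was 0.21 at 4 hours (interval -0.03 to 0.45, adjusted p = 0.9999) and 0.39 at 16 hours (SE 0.11, interval 0.15 to 0.63, unadjusted p = 0.0053, adjusted p = 0.550, or 0.140 with the block).

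Stat3 thus did not pass the test over all probe sets at either time alone. In a model with additive terms for time and treatment, which uses all 8 arrays for 1 IFN-γ effect, the differences were 0.28 on 99099_at (SE 0.07, unadjusted p = 0.0019, adjusted p = 0.200, limma) and 0.30 on 99100_at (SE 0.08, adjusted p = 0.238). With the block the adjusted p-values were 0.0565 and 0.0754, and with 1 mean value per gene Stat3 differed by 0.29 (adjusted p = 0.114, limma). In that model 0 of 13 member probe sets passed, with or without the block, against 0.531% and 1.26% of all probe sets. At an unadjusted p under 0.05, 3 of 13 were higher, the 2 of Stat3 and that of Stat5b, and 0 lower, against 2.01% and 2.37% of all probe sets. The probe sets of Stat3 are not independent replicates, since both read the same RNA.

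The other STAT genes showed no such pattern over both times. Stat4, known for IL-12 signalling, measured 9.09 and 8.99 in medium, against 9.11 and 9.02 with IFN-γ at 4 hours, and 8.64 and 8.80 and then 8.47 and 8.77 at 16 hours. The groups overlapped at both times, with differences of 0.03 (interval -0.27 to 0.33) and -0.10 (interval -0.40 to 0.19). Stat6, known for IL-4 signalling, measured 8.08 and 8.15 and then 8.00 and 7.97 at 4 hours, and 7.76 and 7.76 and then 7.47 and 8.02 at 16 hours. Both IFN-γ arrays of Stat6 were the lower ones at 4 hours, and at 16 hours they lay on either side of the medium arrays. Its differences were -0.13 (interval -0.49 to 0.24) and -0.01 (interval -0.38 to 0.36).

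Stat5a and Stat5b encode closely related proteins that act downstream of IL-2 and GM-CSF. In RefSeq Stat5b, Stat5a and Stat3 are neighbours on chromosome 11. Both Stat5a probe sets were built on 1 source sequence, and by the manufacturer's naming 100423_f_at holds probes shared by a sequence family and 100422_i_at an incomplete probe set, so how far they tell Stat5a from Stat5b is uncertain. On 100422_i_at Stat5a measured 8.67 and 8.61 in medium, against 8.56 and 8.47 with IFN-γ at 4 hours, and 8.26 and 8.29 and then 8.37 and 8.27 at 16 hours. On 100423_f_at the values were 7.92 and 7.98, 7.89 and 7.89, 7.69 and 7.55, and 7.70 and 7.60. On both, the IFN-γ arrays were the lower ones at 4 hours and overlapped those of medium at 16 hours. The IFN-γ differences were -0.13 and -0.06 at 4 hours and 0.04 and 0.03 at 16 hours, with each interval across 0.

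Stat5b, on 92199_at, measured 6.36 and 6.33 in medium, against 6.80 and 6.62 with IFN-γ at 4 hours, and 6.69 and 6.51 and then 6.76 and 6.60 at 16 hours. It stood higher with IFN-γ on both arrays at 4 hours and overlapped at 16 hours. As with Tyk2, medium at 4 hours, the group set apart by the Actb ratio, was its lowest group, and the part of that ratio was not tested. The difference was 0.36 at 4 hours (SE 0.12, interval 0.09 to 0.64, unadjusted p = 0.0159, adjusted p = 0.698, or 0.116 with the block, limma) and 0.08 at 16 hours (interval -0.20 to 0.36). The effect at 16 hours minus that at 4 hours was -0.29 (SE 0.17, adjusted p = 0.9998).

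**Figure D2:**
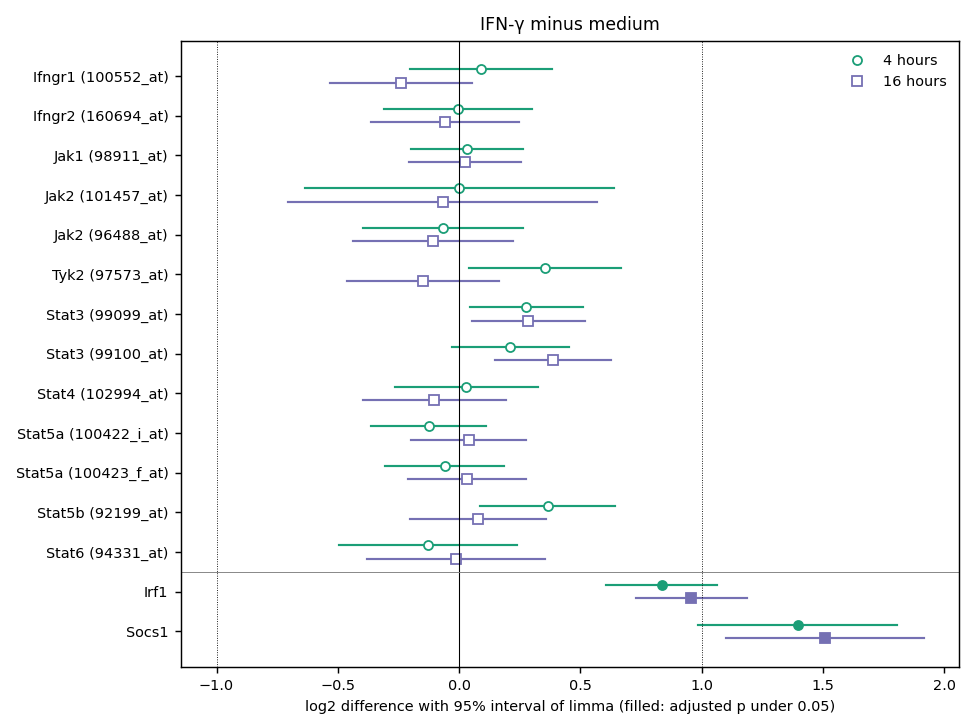
Log2 difference of IFN-γ minus medium (x axis) for each member probe set and, under the grey line, for Irf1 and Socs1, at 4 hours (green circles) and 16 hours (purple squares). Bars are the 95% intervals of limma, filled symbols passed at an adjusted p under 0.05, and the dotted lines mark a halving and a doubling. No member symbol is filled, and all member intervals lie between the dotted lines, while Irf1 and Socs1 are filled at both times. The change of Jak2 on 96488_at, below the antisense controls, cannot be read.

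Counted over the members, at an unadjusted p under 0.05, 3 of 13 probe sets were higher at 4 hours, those of Tyk2, Stat5b and Stat3 99099_at, and 0 lower, against 2.66% and 1.36% of all probe sets. At 16 hours 2 were higher, both of Stat3, and 0 lower, against 1.59% and 1.84%. The arrays did not overlap for 4 higher and 3 lower member probe sets at 4 hours, against 15.4% and 17.9% of all probe sets. At 16 hours this held for 2 higher, both of Stat3, and 2 lower, Ifngr1 and Ifngr2, against 9.1% and 9.85%. For the difference between the effects at 16 and 4 hours, 0 of 13 passed, and 0% of all probe sets did. With the block 0 of 13 passed, against 0.242%. At an unadjusted p under 0.05, 0 were higher and 1 lower, Tyk2, against 0.886% and 1.96%.

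Between 4 and 16 hours of culture the group means of Stat3, Stat4, Stat5a and Stat6 went down in both conditions, most of them without passing the test, and the receptor and kinase genes showed no common direction in medium. In medium 1 of 13 member probe sets passed, Stat3 on 99100_at, which fell, against 4.27% of all probe sets in either direction and 2.57% that fell. With the replicate block 4 fell, both probe sets of Stat3 and both of Stat5a, against 8.09%. The median difference of the members was -0.32, against 0.05 over all probe sets. With IFN-γ 0 of 13 passed, against 2.12%, and with the block 2 fell, Stat3 99100_at and Stat4, against 6.94%. There the median was -0.20, against 0.05, and the differences of the 12 member probe sets above the antisense controls were all below 0, where 7523 of all 12422 were above it. These 12 were each brighter than 66.2% to 96.6% of all probe sets, and no comparison set was matched to them by brightness. The size of the falls also moved with normalization. In medium Stat3 on 99099_at, Stat4 and Stat6 differed by -0.19, -0.19 and -0.27 after quantile normalization. After median centring the same values were -0.36, -0.36 and -0.40. In bulk RNA, fewer cells of a type and less RNA per cell cannot be told apart.

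Stat3 fell by 0.54 on 99100_at between 4 and 16 hours in medium (SE 0.11, interval -0.78 to -0.30, adjusted p = 0.0256, or 0.00408 with the block, limma), from a mean of 9.13 to 8.59. No array of one time reached the range of the other. On 99099_at the difference was -0.32 (interval -0.55 to -0.09, adjusted p = 0.139, or 0.0427 with the block), and with 1 mean value per gene Stat3 fell by 0.43 (SE 0.10, adjusted p = 0.0399). The call on 99100_at was lost after quantile normalization (difference -0.42, adjusted p = 0.0580). It was also lost without medium array 1 or 2 at 4 hours (adjusted p = 0.225 and 0.162), without medium array 1 or 2 at 16 hours (0.107 and 0.124) and without either IFN-γ array at 4 hours (0.0647 for each).

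With IFN-γ, Stat3 differed by -0.37 on 99100_at (interval -0.61 to -0.13, adjusted p = 0.132, or 0.0320 with the block, limma) and by -0.31 on 99099_at (adjusted p = 0.186, or 0.0544 with the block). On both probe sets the order of the group means was IFN-γ at 4 hours, medium at 4 hours, IFN-γ at 16 hours and medium at 16 hours. On 99099_at the middle groups touched, with medium at 4 hours at 9.31 and 9.25 and IFN-γ at 16 hours at 9.21 and 9.28. On 99100_at they did not, at 9.17 and 9.09 against 8.93 and 9.02.

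Every 16-hour array of Stat4 lay below every 4-hour array, with a difference of -0.32 in medium (interval -0.61 to -0.02, adjusted p = 0.267, limma) and of -0.45 with IFN-γ (SE 0.13, interval -0.74 to -0.15, adjusted p = 0.135, or 0.0344 with the block). The latter was -0.60 (adjusted p = 0.0344) without IFN-γ array 2 at 16 hours, -0.30 (adjusted p = 0.480) without array 1 of that group, and -0.30 (adjusted p = 0.297) without array 1 of both 16-hour groups. Stat5a differed in medium by -0.36 on 100422_i_at (adjusted p = 0.102, or 0.0249 with the block) and by -0.33 on 100423_f_at (adjusted p = 0.148, or 0.0449 with the block). With IFN-γ its differences were -0.20 and -0.24, and in both conditions no 16-hour array reached the 4-hour arrays. Stat6 differed by -0.36 in medium (interval -0.72 to 0.01, adjusted p = 0.322, limma) and by -0.24 with IFN-γ. The latter became -0.51 (adjusted p = 0.0400) without array 2 of IFN-γ at 16 hours, which stood 0.55 above array 1, and 0.03 without array 1 of both 16-hour groups.

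Tyk2 and Stat5b went the other way in medium, with both 16-hour arrays above both 4-hour arrays. The differences were 0.30 for Tyk2 (interval -0.01 to 0.62, adjusted p = 0.322, limma) and 0.26 for Stat5b (interval -0.02 to 0.54, adjusted p = 0.350), which did not pass. With IFN-γ they were -0.20 and -0.03. Jak2 differed by -0.36 in medium (interval -0.995 to 0.28, adjusted p = 0.585) and by -0.43 with IFN-γ (adjusted p = 0.561), where its interval was the only one of the 13 to reach a halving, at -1.06. Without array 1 of both 16-hour groups the Jak2 differences were 0.06 and -0.05, so that these values rest on those 2 arrays. Ifngr1 differed by 0.15 in medium and -0.18 with IFN-γ, Ifngr2 by -0.00 and -0.06, and Jak1 by -0.03 and -0.04, with every interval across 0.

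**Figure D3:**
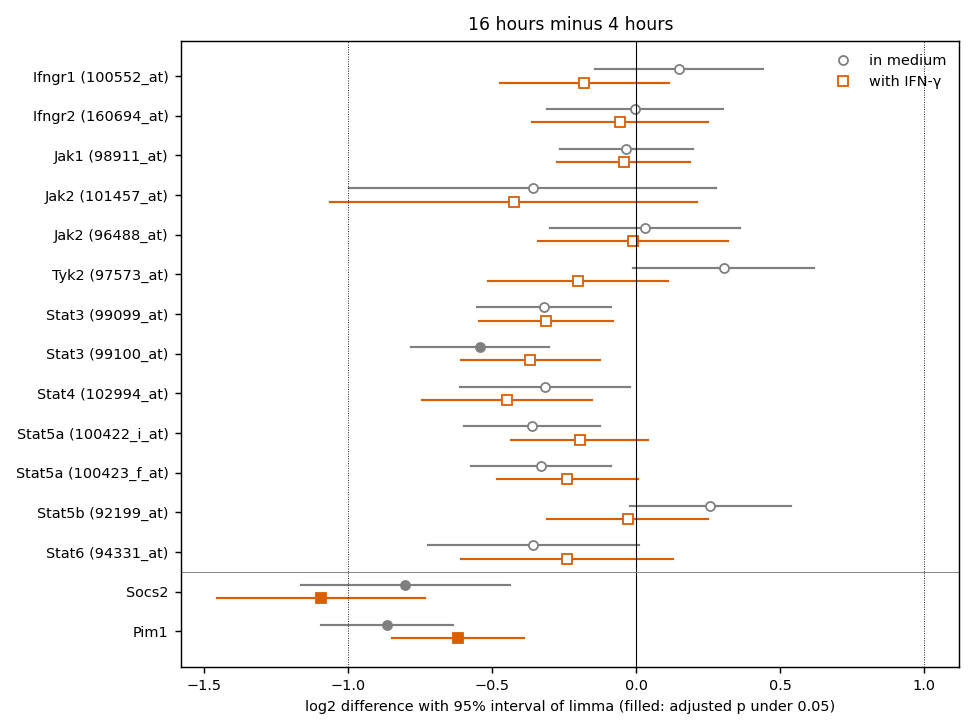
Log2 difference of 16 hours minus 4 hours (x axis) for each member probe set and, under the grey line, for Socs2 and Pim1, in medium (grey circles) and with IFN-γ (orange squares). Bars are the 95% intervals of limma, filled symbols passed at an adjusted p under 0.05, and the dotted lines mark a halving and a doubling. Stat3 on 99100_at in medium is the filled member symbol, at -0.54, and the Stat3, Stat4, Stat5a and Stat6 symbols lie left of 0 in both conditions.

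In medium, at an unadjusted p under 0.05, 5 of 13 member probe sets were lower, those of Stat3, Stat4 and Stat5a, and 0 higher, against 9.63% and 6.58% of all probe sets. With IFN-γ 3 were lower, those of Stat3 and Stat4, and 0 higher, against 8.4% and 5.34%. The arrays did not overlap for 6 lower and 2 higher member probe sets in medium, against 20.8% and 30.8% of all probe sets. With IFN-γ this held for 7 lower, those of Stat3, Stat4 and Stat5a with Jak1 and Ifngr1, and 0 higher, against 17.7% and 21.6%. Markers of macrophages moved with time as well: 10 of 13 rose and 1 fell in medium, and 9 rose and 1 fell with IFN-γ. Their summed intensity per array was 1851 to 1900 in medium and 1410 to 1416 with IFN-γ at 4 hours, and 4720 to 5536 and 3440 to 4282 at 16 hours. The 9 macrophage markers above the antisense controls on average, C1qa, C1qb, C1qc, Lyz2, Fcgr1, Cd68, Csf1r, Adgre1 and Msr1, rose in both conditions. Mrc1, Spic, Vcam1 and Marco were on average at or below the controls, and Spic was the one that fell. Of 12 measured CD8+ dendritic cell markers, 1 fell and 0 rose with time in each condition, Irf8 in medium and Flt3 with IFN-γ. With the block 5 fell in each, where 8.09% of all probe sets fell in medium and 6.94% with IFN-γ, and with IFN-γ 1 rose. The share of all probe sets that rose with the block is not given here, for this list or the others. Of the 8 such markers above the antisense controls, Ly75 differed most, by -0.99 in medium and -1.03 with IFN-γ (SE 0.36, adjusted p = 0.197 and 0.218, or 0.00408 and 0.00438 with the block, limma). At 16 hours its array 1 was the lower one in both conditions, at 6.54 against 7.33 in medium and 6.43 against 7.58 with IFN-γ. In the same order Id2 differed by -0.48 and -0.54, Irf8 by -0.47 and -0.25, Batf3 by -0.36 and -0.37, and Flt3 by -0.33 and -0.52. Cd24a differed by 0.24 and 0.12, Cd8a by -0.05 and -0.09, and Itgax by -0.05 and 0.05. The summed intensity of the 12 measured markers was 4374 to 4573 in medium and 4815 to 5061 with IFN-γ at 4 hours, and 3483 to 3692 and 3670 to 4299 at 16 hours. It includes Irf8, itself a marker of the response to IFN-γ.

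B cell markers moved with time under IFN-γ, where 1 of 5 rose, Blk (difference 0.62, adjusted p = 0.0436, limma), and 5 with the block, while in medium 0 rose, or 1 with the block. For the difference between the IFN-γ effects at 16 and 4 hours, 0 of the 5 passed, with or without the block. These counts thus do not show that the change with time differed between the conditions. Their summed intensity was 2467 to 2851 in medium and 2075 to 2191 with IFN-γ at 4 hours, and 2807 to 3056 and 3046 to 3255 at 16 hours. Of 3 erythroid markers, 2 fell in both conditions, Hbb-b2, whose level was below the antisense controls, and Hba-a1, by 1.15 in medium and 0.82 with IFN-γ. Their summed intensity was 420.5 to 424.5 and 377.1 to 396.5 at 4 hours, and 207.5 to 221.0 and 214.6 to 257.8 at 16 hours. In medium 1 of 7 neutrophil markers also fell and 1 of 3 markers of CD4+ or CD11b+ dendritic cells rose. The part of these lists in the lower STAT values, and that of the Actb ratio, was not tested.

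The replicate arrays set the precision of each member. The median difference between arrays 1 and 2, regardless of sign, was 0.074 over the member probe sets for the 4-hour medium arrays, 0.093 for the 4-hour IFN-γ arrays, and 0.124 and 0.167 for those of 16 hours. Over all probe sets it was 0.106, 0.112, 0.158 and 0.225. The 16-hour arrays were thus the more variable ones, for the members as for the array. The widest member gap was that of Jak2 in both 16-hour groups. At 4 hours it was that of Ifngr2 with IFN-γ, at 0.38, and that of the dim Jak2 probe set in medium, at 0.13.

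**Figure D4:**
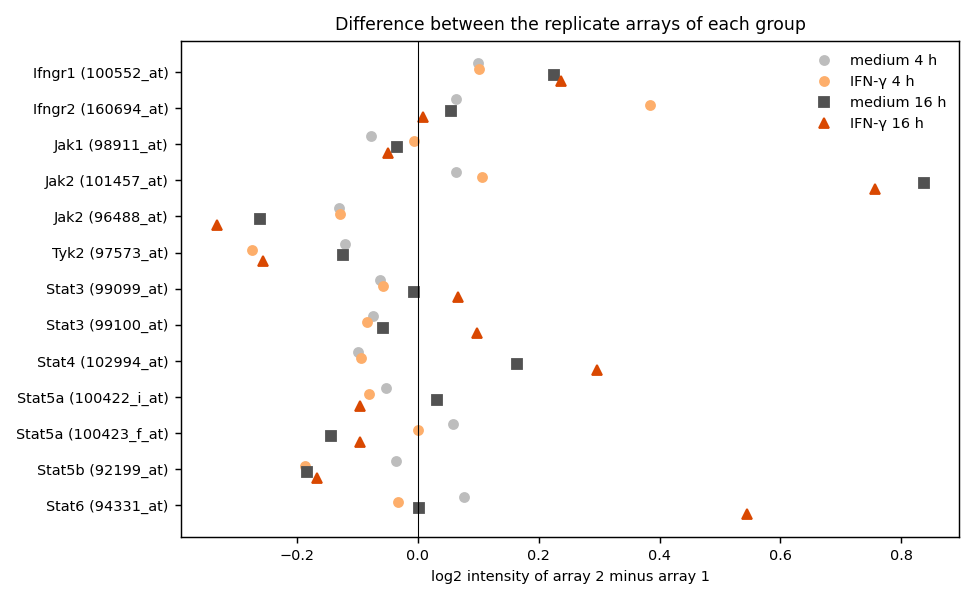
Log2 intensity of array 2 minus array 1 (x axis) within each of the 4 groups, for every member probe set (rows). Light symbols are the 4-hour groups and dark symbols the 16-hour groups. Jak2 on 101457_at stands out at 16 hours, at 0.84 in medium and 0.76 with IFN-γ, and Stat6 with IFN-γ at 16 hours, at 0.55.

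Other genes of JAK-STAT signalling were counted from lists of 28 cytokine receptor chains, 19 inhibitors and phosphatases and 9 adaptors and partners, of which 24, 15 and 7 were measured, 46 of 56 in all. With IFN-γ, 1 of the 46 rose at 4 hours and 1 at 16 hours, Socs1 in each case, and 0 fell, where 0.279% and 0.303% of all genes passed. Socs1, which encodes an inhibitor of JAK kinases and of IFN-γ signalling, went from 8.43 and 8.16 to 9.95 and 9.43 at 4 hours (difference 1.39, SE 0.18, adjusted p = 0.0141, limma). At 16 hours it went from 8.16 and 7.96 to 9.48 and 9.66 (difference 1.51, adjusted p = 0.0137). The 4-hour call was lost without either medium array or without IFN-γ array 1 at that time, and the 16-hour call without array 2 of medium or of IFN-γ at that time, each leaving 0 of 46.

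With the block, Il12rb1, a chain of the IL-12 receptor whose signal reaches STAT4, also rose at 16 hours. It went from 5.90 and 5.63, near the antisense controls, to 6.56 and 6.30 (difference 0.67, adjusted p = 0.226, or 0.00497 with the block, limma). Other regulators and receptor chains did not pass with IFN-γ. Socs3, the inhibitor best known for acting on IL-6 signalling, differed by 0.32 at 4 hours and 0.14 at 16 hours, and Cish, an inhibitor induced through STAT5, by 0.27 and 0.09. Ifnar1 and Ifnar2, the chains of the type I interferon receptor, differed by -0.16 and -0.26 at 4 hours and by -0.31 and -0.14 at 16 hours. The median over the 46 genes was 0.04 at 4 hours and 0.02 at 16 hours, against -0.01 and -0.00 over all genes. For the difference between the effects 0 of 46 passed, against 0% of all genes.

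With time, 2 of the 46 genes fell and 0 rose in both conditions, Socs2 and Pim1, where 4.65% of all genes passed in medium and 2.62% with IFN-γ. Socs2, an inhibitor of STAT5-activating receptors such as that for growth hormone, fell from 8.91 and 9.05 to 8.07 and 8.29 in medium (difference -0.80, adjusted p = 0.0278, limma) and from 9.05 and 9.18 to 7.79 and 8.25 with IFN-γ (difference -1.09, adjusted p = 0.0115). Pim1, a kinase gene known as a target of STAT3 and STAT5, fell from 10.42 and 10.48 to 9.57 and 9.60 in medium (difference -0.86, adjusted p = 0.0026) and by 0.62 with IFN-γ (difference -0.62, adjusted p = 0.0189). No 16-hour array of either gene reached the 4-hour arrays. In medium 1 of 46 passed when any of the 4-hour arrays was left out, and 5 when either IFN-γ array of 16 hours was. With IFN-γ 1 passed without either medium array of 4 hours, 0 without either IFN-γ array of 4 hours, and 3 without IFN-γ array 2 of 16 hours.

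With the block, 4 of the 46 genes fell and 1 rose in medium, where 8.09% of all probe sets fell. With IFN-γ 4 of the 46 fell, against 6.94% of all probe sets. The further ones were Il15ra, a chain of the IL-15 receptor, at -0.45 in medium and -0.64 with IFN-γ, Il2ra, whose level was below the antisense controls, and Ptprc, which encodes the phosphatase CD45, at 0.73 in medium. The median over the 46 genes was -0.01 in medium and -0.08 with IFN-γ, against 0.04 over all genes in both.

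Likeness was sought among 770 genes other than the members. Their group means spanned at least 0.5 on the log2 scale, and their mean over all arrays was above the antisense controls. Those most like Stat3 over the 8 arrays by Pearson's r were 1110038F14Rik (0.983), the phosphofructokinase gene Pfkp (0.976) and the pyrophosphatase gene Ppa1 (0.974). Pfkp had group means of 7.38 and 7.88 in medium and IFN-γ at 4 hours and 6.72 and 7.28 at 16 hours, which is the order of groups seen for Stat3. The least like were Id3 (-0.979), Hp (-0.973) and Ccr6 (-0.970), each with its highest group mean in medium at 16 hours and its lowest with IFN-γ at 4 hours. For Stat4, the member with the next largest range, the most alike were the cystatin gene Cst3 (0.994), Marcksl1 (0.990) and Plscr1 (0.988), and the least alike Inpp5j (-0.930), Guca1a (-0.908) and Grcc10 (-0.901). Cst3 had group means of 12.42 and 12.44 at 4 hours and 11.97 and 11.77 at 16 hours, with IFN-γ the lower at 16 hours as for Stat4. These correlations share the same 8 arrays and are a description with no test.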

How the data were processed

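RNA of 8 samples was measured, and groups and replicate numbers were taken from the sample titles. The authors deposited 1 intensity per probe set and array, and RMA is named per the submitters' processing notes, whose version and settings are not given in the sources used here. Values ran from 2.65 to 12523.5, so they are linear, and they were log2-transformed without a pseudocount or another normalization. Tests left out 66 array controls among the 12488 probe sets. Gene names came from the platform annotation (10833 probe sets with 1 symbol, 396 with several, 1193 unlisted) and were set against RefSeq of GRCm38.p6, which also gave the promoters. The array names no build, so genes have no coordinates here.

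The log2 values of all 12422 probe sets were tested by limma 3.58.1 (R 4.3.3; lmFit, eBayes, two-sided), with 4 group means over all 8 arrays and a shared spread. Benjamini-Hochberg adjustment was made over the probe sets of a comparison, with calls at 0.05. Listed genes were represented by the probe set with the highest mean, and lists were described by counts and medians. The rule for named genes took every member, every listed pathway gene called, and Socs1, Socs3, Cish, Ifnar1, Ifnar2, Irf1 and Cxcl9 whether called or not, and for likeness the 3 highest and 3 lowest correlations. The members and lists were chosen with earlier results of these data known. The fits were tested on simulated data.

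Replicate numbers were checked for pairing by correlating, between groups, the difference of array 2 and array 1 over probe sets. The 6 correlations ran from 0.367 to 0.740, all above 0.1, so these numbers were taken to pair arrays, which no label states. The fit with this number as a block is given where it changes a call or moves a count by over 1.5 times. The alternatives tried were the block, a threshold of 0.01, median centring or quantile normalization, a filter on the dimmest 40% of probe sets, a robust and trended prior, only the compared arrays, leave-one-out fits, and 1 mean value per gene. A fit without array 1 of both 16-hour groups was added after the data had been seen. A lone array was assumed to vary like the other groups. The planned comparison of member proteins was not made here.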

Additional observations from a re-analysis of the deposited data

How the results depend on the processing

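Over 17 alternatives, 0 of 1216 single values (a difference of a member probe set under an alternative) reversed a call, 7 lost and 8 gained one, and 75 changed sign with neither value past the threshold. That count left out the threshold of 0.01 and the named genes that are not members. All 7 losses were those of Stat3 on 99100_at with time in medium, and the lost calls of Socs1 given above come on top. Member counts with IFN-γ at both times were 0 in all 17 alternatives. Those for the difference of effects and in the additive model were 0 in every alternative that fitted them. The fit of only the compared arrays did not include these. Of the members, 1 fell with time in medium, against 0 after quantile normalization, 4 with the replicate block, 0 at an adjusted p under 0.01 and 0 to 1 with an array left out. With IFN-γ 0 fell with time, against 2 with the block and 0 to 2 with an array left out. Of the 46 pathway genes, 1 rose at 4 hours, against 2 with only the compared arrays, 2 without array 1 of both 16-hour groups, 0 at an adjusted p under 0.01 and 0 to 1 with an array left out. At 16 hours 1 rose, against 2 with the block, 0 without array 1 of both 16-hour groups, 0 at 0.01 and 0 to 1 with an array left out. With time 2 changed in medium, against 5 with the block, 1 at 0.01 and 1 to 5 with an array left out, and 2 with IFN-γ, against 1 with only the compared arrays, 4 with the block, 0 at 0.01 and 0 to 3 with an array left out. In the additive model 1 rose, against 2 with the block. The block changed no call of a member other than those given. Why these counts moved was not tested. The dim Jak2 probe set is limited by signal over background.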
